A study of Mus musculus with 26 samples.

Results

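Oxidative phosphorylation carries electrons from NADH and succinate through complexes I to IV of the inner mitochondrial membrane to oxygen, and complex V, the ATP synthase, turns the proton gradient that results into ATP. Most of the subunits are made from nuclear genes and imported, while mitochondrial DNA supplies core subunits of every complex except complex II. Some subunits come in versions that differ by tissue, such as the muscle forms Cox6a2, Cox7a1 and Cox8b and the testis forms Cox6b2, Cox7b2 and Cox8c of complex IV.

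Transcripts were sequenced from epididymal fat of male wild-type C57BL/6J mice, which collagenase and centrifugation had split into floating adipocytes and a pellet of stromal vascular cells (SVC), a mixture of immune, endothelial and progenitor cells. From 9 to 10 weeks of age the mice ate feed with 10% fat (LFD) or 60% fat (HFD) for 12 weeks, or HFD for 9 weeks and then, for the last 3, LFD (SW). The labels list 3 libraries of each fraction for every diet. Value columns could be tied to a diet for all of them in adipocytes, but in SVC for only 1 of LFD and 2 of HFD beside the 3 of SW, and 3 further columns were left out. The comparisons ask how the subunit transcripts differed in obesity, where they stood after the switch back to LFD, and whether the fractions differed. Estimated counts totalled 6142895, 19720207 and 7510142 in adipocyte LFD libraries 404, 405 and 406, 12223677, 23725647 and 22162837 in HFD libraries 401, 402 and 403, and 11314661, 16271834 and 13722008 in SW libraries 407, 408 and 409. In SVC the totals were 5781902 in LFD library 236, 13106471 and 17818059 in HFD libraries 212 and 411, and 10155860, 22195810 and 10121939 in SW libraries 412, 413 and 414. Values per library below follow this order, as read counts scaled to library size (CPM).

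The symbol rule took 94 of 39017 genes: 36 subunits of complex I, 4 of complex II, 9 of complex III, 19 of complex IV with Ndufa4 among them, 16 of complex V with Atp5l2, annotated as a processed pseudogene, among them, 7 Ndufaf factors that help to assemble complex I, the Ndufa4 paralog Ndufa4l2, and Atp5s and Atp5sl. Enough counts for a test were found for 90 of them in adipocytes and for 92 in SVC. The testis forms Cox7b2 and Cox8c fell short in adipocytes only, Atp5l2 had 4 counts in all 15 libraries, and Atp5g2 had 0, while a copy with the same coding sequence had counts, so that its level cannot be told from this 0. The members took 1.52, 1.74 and 2.05% of the counts in the adipocyte LFD libraries, 1.02, 1.28 and 1.08% in HFD and 1.77, 1.49 and 1.58% in SW, against 0.611% on LFD, 0.777 and 0.760% on HFD and 0.933, 0.815 and 0.964% on SW in SVC. Per kilobase of principal transcript, the highest member of complex IV in adipocytes on LFD was Cox4i1 at 987 ± 180.3 CPM per kilobase (SD, n = 3), and that of complex V was Atp5g3 at 918 ± 75.4. Uqcrh led complex III at 667 ± 129.9, Ndufa2 complex I at 423 ± 82.7, and Sdhd complex II at 167 ± 24.8. In SVC on SW the highest were Cox4i1 at 848 ± 169.8, Atp5b, the catalytic beta subunit of ATP synthase, at 374 ± 26.6, Uqcrh at 268 ± 84.6, Ndufa7 at 224 ± 65.4 and Sdhb at 182 ± 47.7.

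In the adipocyte fraction the transcripts of most subunits measured lower on HFD than on LFD. These are levels in a bulk fraction whose cell type markers also differed between the diets, as given below. Of 90 members tested, 67 fell and 1 rose (quasi-likelihood test of edgeR, adjusted after Benjamini-Hochberg, adjusted p under 0.05), against 25.0% lower and 26.5% higher among the 14461 genes tested. The median log2 fold change was -0.77 over the members and -0.03 over all genes. Complex I, which takes electrons from NADH, went down most broadly: 32 of 36 subunits fell, with a median of -0.97, among them 5 of the 7 core subunits and 27 of the 29 accessory ones. Its summed level was 4255, 5326 and 6076 CPM on LFD (5219 ± 915, SD, n = 3) and 2409, 3259.8 and 2689.7 on HFD (2786 ± 433). In complex IV, which hands electrons to oxygen, 13 of 17 tested fell and 1 rose, with a median of -0.95, and the sum was 3213, 4165 and 4799.8 CPM on LFD and 1844, 2498 and 2149.7 on HFD. Complex III had 7 of 9 lower (median -0.70), with sums of 1636, 1918 and 2196 CPM on LFD and 1017, 1395 and 1189 on HFD, and complex V had 8 of 14 lower (median -0.53), with sums of 4669, 5137 and 5871 CPM on LFD and 3337, 4547 and 3801 on HFD. Complex II, the succinate dehydrogenase of the citric acid cycle, had 1 of 4 lower (median -0.35), with sums of 836, 900.2 and 1105 CPM on LFD and 649.6, 806 and 735 on HFD. Of the 7 Ndufaf assembly factors 5 fell (median -0.48). In 71 of the 90 members every HFD library lay below every LFD library, against 30.5% of all genes tested.

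**Figure D1:**
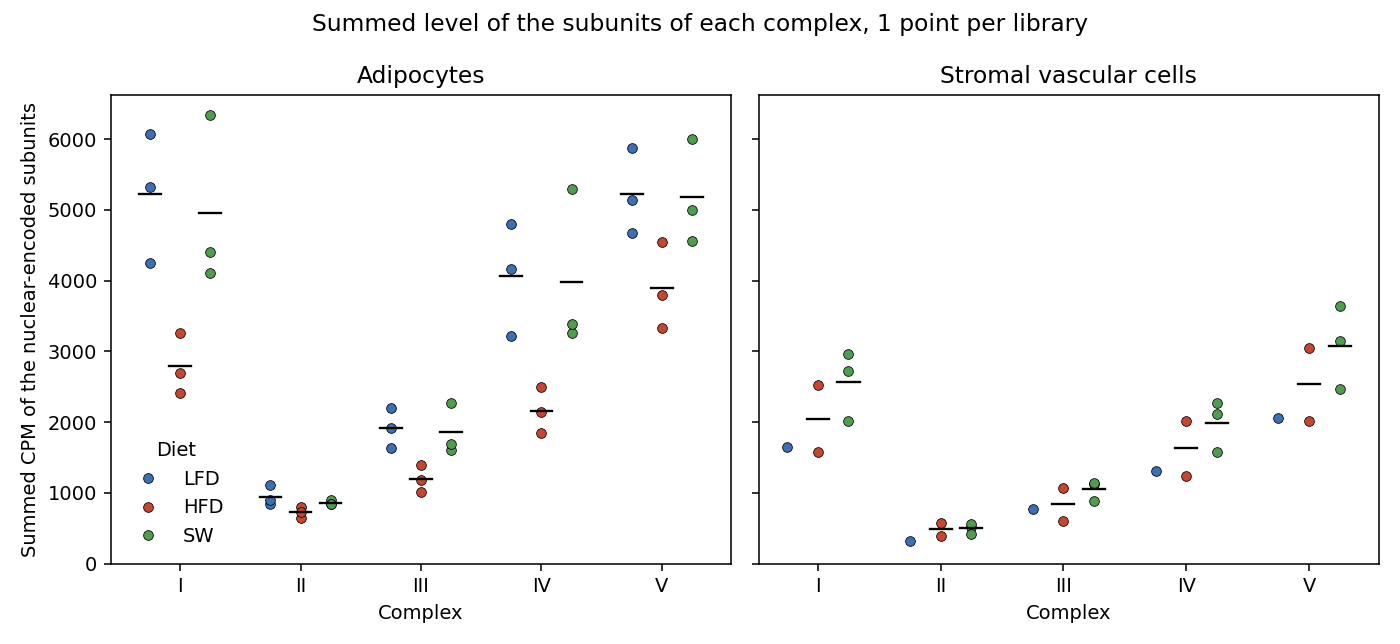
Summed CPM of the nuclear-encoded subunits of each complex, with 1 point per library and a bar at the group mean, in adipocytes (left) and SVC (right). In adipocytes the 3 HFD libraries lie below the LFD and SW libraries for every complex.

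The largest falls in complex I were in accessory subunits. Ndufa5 (ENSMUSG00000023089, chr6:24518666-24528013 of GRCm38 on the minus strand) measured 74.3, 108 and 124 CPM on LFD and 34.7, 44.0 and 38.0 on HFD (log2 fold change -1.39, SE 0.26, adjusted p 0.0015). Ndufb7 and Ndufb10, both of the membrane arm, changed by -1.36 (SE 0.27) and -1.31 (SE 0.24), and among the smaller falls past the test were -0.63 for Ndufv2 and -0.65 for Ndufa10. Ndufs1, the largest iron-sulfur subunit, did not pass the test at -0.03 (SE 0.17). In complex III the small subunits Uqcrq, Uqcr11 and Uqcr10 fell by 1.23, 1.18 and 1.05 log2 units, the Rieske protein Uqcrfs1 by 0.59, cytochrome c1 (Cyc1) by 0.46 and Uqcrb by 0.70. The core proteins Uqcrc1 and Uqcrc2 did not pass, at -0.16 and 0.00. In complex V, Atp5k, Atp5g3 and Atp5e fell by 1.22, 1.03 and 0.92, and Atp5j, Atp5h and Atp5f1 by 0.65, 0.59 and 0.41, while Atp5b at 1204, 1129 and 1412 CPM on LFD and 956, 1383 and 1122 on HFD did not pass (log2 fold change -0.11, SE 0.18, adjusted p 0.63). Sdhd, a membrane anchor of complex II, was the member of that complex that fell (log2 fold change -0.54, SE 0.16, adjusted p 0.017), and Sdha, Sdhb and Sdhc measured -0.35, -0.26 and -0.35. Among the assembly factors the falls were -0.70 for Ndufaf3, -0.49 for Ndufaf1, -0.48 for Ndufaf5, -0.48 for Ndufaf7 and -0.45 for Ndufaf2.

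Complex IV is where versions of the same subunit could be set side by side. Cox4i2, the version of subunit 4 linked to low oxygen, measured 14.6, 24.0 and 18.3 CPM on LFD and 7.21, 5.84 and 5.85 on HFD (log2 fold change -1.62, SE 0.26, adjusted p 0.00076), and the common version Cox4i1 measured 604, 786 and 874 and 369.5, 486 and 405 (log2 fold change -0.85, SE 0.22, adjusted p 0.0094). Cox8b, the muscle and brown fat version of subunit 8, changed by -1.33 (SE 0.33) and Cox8a by -1.31 (SE 0.23). Cox7c and Cox7a2 showed the smallest falls past the test, -0.73 and -0.73, and the muscle form Cox7a1 did not pass at -0.63 (SE 0.37). Ndufa4l2, a hypoxia-responsive paralog of Ndufa4, measured 45.3, 63.8 and 46.4 CPM on LFD and 20.6, 16.9 and 18.9 on HFD (log2 fold change -1.47, SE 0.20, adjusted p 0.00028). The member that rose, the muscle form Cox6a2, stood at 0, 0.670 and 0.132 CPM on LFD and 1.35, 1.25 and 1.88 on HFD (log2 fold change 1.99, SE 0.71, adjusted p 0.037). Its counts were 0, 13 and 1 on LFD, 18, 30 and 42 on HFD and 22, 10 and 14 on SW, so it entered the test largely through the HFD libraries. Where at least 10 counts were required in every library, 0 members rose. The call of Cox6a2 was lost without HFD library 401, 402 or 403 or LFD library 404 or 406. Its common counterpart Cox6a1 measured 359.8, 487 and 539 and 172, 241 and 208 CPM (log2 fold change -1.16, SE 0.27, adjusted p 0.0057). The count of 67 members lower became 48 without HFD library 401, 49 without HFD library 403 and 47 without LFD library 406, and the genes lower overall went from 3612 to 3117, 2667 and 2915.

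Genes around the complexes moved in part. Of 36 assembly factors outside the symbol rule 15 fell and 2 rose, where 25.0% of all genes tested fell and 26.5% rose, with a median of -0.36: the copper chaperone Cox17 fell by 1.35, the complex III factor Uqcc3 by 1.23 and the complex II factor Sdhaf1 by 1.05, while Cox15, a heme A synthase, rose by 0.74 and Lrpprc by 0.32. Cytochrome c (Cycs) fell by 0.51. Among 20 regulators tested 7 fell and 2 rose: the mitochondrial transcription factor Tfam fell by 0.31, the helicase Twnk by 0.72, the transcription termination factor homolog Mterf1a by 1.23 and the adipocyte receptor Pparg by 0.93, and Esrrg rose by 1.12 and Gabpa by 0.56. Ppargc1a, Nrf1 and Esrra, known activators of respiratory genes, did not pass, at -0.02, 0.28 and -0.12. Of the 13 subunit transcripts of mitochondrial DNA, mt-Nd4l rose by 1.57 and mt-Nd3 and mt-Nd6 fell by 1.01 and 1.15, and their sum was 117860.0, 137429 and 102452 CPM on LFD, 75905, 98994 and 115574 on HFD and 111411, 104274 and 91103 on SW. Of 18 genes taken as a measure of mitochondrial mass 4 fell and 2 rose, a share of falls close to that of all genes, with Cs, citrate synthase, at -0.16 and Vdac1, a channel of the outer membrane, at 0.00.

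Markers of other cell types differed between the same libraries. All 11 macrophage markers rose on HFD, and their sum was 1074, 942 and 599 CPM on LFD, 11391, 9259 and 11376 on HFD and 8423, 6743 and 6358 on SW, with Lyz2 the most abundant and none at 0. Of 10 adipocyte markers 7 fell on HFD, and their sum was 32459, 44315 and 50750.3 CPM on LFD, 12392, 20999.5 and 15991 on HFD and 29339, 28845 and 28700.5 on SW, with Fabp4 the most abundant and none at 0. On HFD against LFD, 3 of 5 fibroblast and progenitor markers rose, 2 of 3 endothelial, 3 of 3 mesothelial, 4 of 4 erythroid, both tested skeletal muscle, 1 of 4 brown and beige fat and 1 of 3 tested testis and epididymis markers fell, and none of the 4 T cell and 3 B cell markers tested passed. In bulk samples fewer cells of a type and less RNA per cell cannot be told apart. The part of these cell types in the change of the subunits was not tested.

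After the switch from HFD to LFD the subunit transcripts of adipocytes stood higher than on HFD. Of 90 members 65 rose and 0 fell by edgeR's quasi-likelihood test, against 15.6% higher and 15.9% lower among all genes tested. At an unadjusted p under 0.05 the counts were 78 and 0, where 6477 of 14461 genes passed in either direction. Past the adjusted threshold DESeq2 called 73 and 0 (2534 and 2649 of all genes) and limma-voom 67 and 0 (2267 and 2447). The median was 0.78 over the members and 0.01 over all genes. By complex, 31 of 36 subunits of complex I rose (median 0.91), 5 of 9 of complex III (0.77), 12 of 17 of complex IV (0.96), 10 of 14 of complex V (0.68) and 6 of 7 Ndufaf factors (0.50), and none of the 4 of complex II passed (0.34). Summed levels on SW were 6344, 4112 and 4405 CPM for complex I, 905, 837 and 843 for complex II, 2266, 1604 and 1691 for complex III, 5293, 3262 and 3386 for complex IV and 5998, 4567 and 4994 for complex V. This comparison shares its HFD libraries with that of HFD against LFD. In 78 of 90 members every SW library lay above every HFD library, against 23.3% of all genes tested. The count of 65 became 13 without HFD library 401, 9 without HFD library 403 and 44 without SW library 407, with medians of 0.67, 0.75 and 0.55, and the genes higher overall went from 2252 to 1017, 627 and 1635.

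Ndufa5 again had the largest change in complex I, at 146, 86.8 and 77.5 CPM on SW (log2 fold change 1.41, SE 0.26, adjusted p 0.0063), with Ndufa2 at 1.39 (SE 0.29) and Ndufb7 at 1.21 (SE 0.26). The smallest rises there were 0.64 for Ndufv1, 0.69 for Ndufb3 and 0.70 for Ndufa8. In complex III Uqcr11, Uqcrh, Uqcrq, Uqcr10 and Uqcrb rose by 1.09, 1.04, 0.98, 0.91 and 0.77. Cox8b measured 27.2, 30.9 and 53.2 CPM on LFD, 12.8, 17.1 and 14.2 on HFD and 52.7, 35.8 and 21.8 on SW (log2 fold change 1.31, SE 0.32, adjusted p 0.016 for SW against HFD), and Cox4i2 and the testis form Cox6b2 rose by 1.24 and 1.19. The counts of Cox6b2 were low, at 11, 17 and 28 on HFD and 30, 28 and 24 on SW. Cox5b, Cox7a2 and Cox4i1 rose by 0.78, 0.86 and 0.90. In complex V, Atp5e, Atp5k and Atp5j2 rose by 1.29, 1.10 and 0.90, and Atp5j, Atp5l and Atp5f1 by 0.52, 0.49 and 0.46, all parts of the ATP synthase outside its catalytic subunits. Ndufaf3 rose by 0.82, Ndufaf6 by 0.53 and Ndufa4l2 by 0.79. Around the complexes, 11 of 36 assembly factors rose and 3 fell, Cycs rose by 0.60, 4 of 18 mass genes rose, and 1 regulator (Twnk, 0.45) rose while Gabpa and Esrrg fell by 0.49 and 1.31. Of the adipocyte markers 5 of 10 rose, and 4 of 11 macrophage markers fell.

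Against LFD, the adipocytes of SW mice showed few differences past the test in these transcripts. By edgeR's quasi-likelihood test 0 of 90 members were higher and 1 was lower, against 10.9% and 6.18% of all genes tested. At an unadjusted p under 0.05 the counts were 1 and 2, where 4602 of 14461 genes passed in either direction. DESeq2 and limma-voom each called 0 higher and 1 lower, against 1854 and 1202 genes by DESeq2 and 1488 and 928 by limma-voom. The median was -0.04. The member lower was Ndufa4l2, at 45.3, 63.8 and 46.4 CPM on LFD and 42.5, 26.2 and 28.9 on SW (log2 fold change -0.68, SE 0.20, adjusted p 0.041), and its call was lost without HFD library 403, LFD library 405 or 406 or SW library 408 or 409. Without LFD library 405 the count higher was 1. All 11 macrophage markers were higher on SW than on LFD. The comparison uses the LFD and SW libraries of the comparisons above. SW library 407 stood above libraries 408 and 409 in the sum of every complex, and without it the median was -0.25. The counts at an unadjusted p under 0.05 were then 0 higher and 11 lower, where 4327 of 14928 genes passed in either direction. Without library 408 these counts were 4 and 1, where 4273 of 14730 genes passed.

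The subunit transcripts are short, and change in adipocytes followed transcript length across all genes. The longest transcript of a member had a median of 1105.5 bases (range 312 to 6310), against 3273 over the genes tested, and 43 of 94 members had 1000 bases or fewer, against 5.97% of the genes tested. Among other genes the median of HFD against LFD ran from -1.16 at 400 bases or fewer to 0.28 above 6000 bases, and that of SW against HFD from 1.55 to -0.38. Members lay below other genes of their length class in 77 of 90 cases for HFD against LFD and above them in 69 of 90 for SW against HFD, and for SW against LFD 69 of 90 lay below (73 by the length of the principal transcript). At 601 to 800 bases the median of 16 members was -0.998 on HFD against LFD and that of other genes -0.62, and at 3001 to 4000 bases 5 members had -0.86 and other genes 0.03. By principal transcript, which is shorter for some of these, 3 members of 3001 to 4000 bases had -0.35 and other genes 0.06. Per library, the median deviation of other genes of 1000 bases or fewer was -0.08, 0.24 and 0.16 on LFD, -0.51, -0.26 and -0.38 on HFD and 0.67, 0.06 and 0.12 on SW, and that of members as short 0.03, 0.46 and 0.60 on LFD, -0.82, -0.38 and -0.67 on HFD and 0.75, 0.00 and 0.10 on SW. With an offset for transcript length in the test, 48 members fell and 4 rose on HFD against LFD (median -0.37), and 23 rose and 0 fell on SW against HFD (median 0.22; 38 and 2 at an unadjusted p under 0.05). Of the 14461 genes tested, 3573 fell and 4014 rose in the first of these comparisons with the offset. In the other 1570 rose and 1882 fell, and 5689 had an unadjusted p under 0.05. What makes short transcripts differ between these libraries was not tested.

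With this offset complex I had the largest count, with 27 of 36 lower and 1 higher on HFD against LFD (median -0.49) and 15 higher on SW against HFD (median 0.33). Complex IV had 8 lower and 3 higher on HFD (median -0.32) and 3 higher on SW (0.18), complex III 4 lower (-0.21) and 1 higher on SW (0.08), complex V 5 lower (-0.36) and 3 higher on SW (0.18), complex II 1 lower (-0.22), and the Ndufaf factors 2 lower (-0.30) and 1 higher on SW. Ndufa5 measured -0.83 and 0.73 for the 2 comparisons, Cox4i2 -1.0005 and 0.48, and Ndufa4l2 -0.95 and 0.16. Cox7a2l, a protein of respiratory supercomplexes, turned from -0.07 to 0.40 on HFD against LFD and Cox7b from -0.11 to 0.39, and on SW against HFD Uqcrb turned to -0.09, Atp5j to -0.10 and Ndufb3 to -0.01. For SW against LFD the offset gave 0 higher and 4 lower, against 1878 and 1121 of 14461 genes. At an unadjusted p under 0.05 the counts of members were 3 and 15, where 4979 genes passed in either direction. An upper-quartile scaling moved the median of all genes in HFD against LFD to -0.12 and gave 75 members lower, with 4283 genes lower in all in place of 3612.

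**Figure D2:**
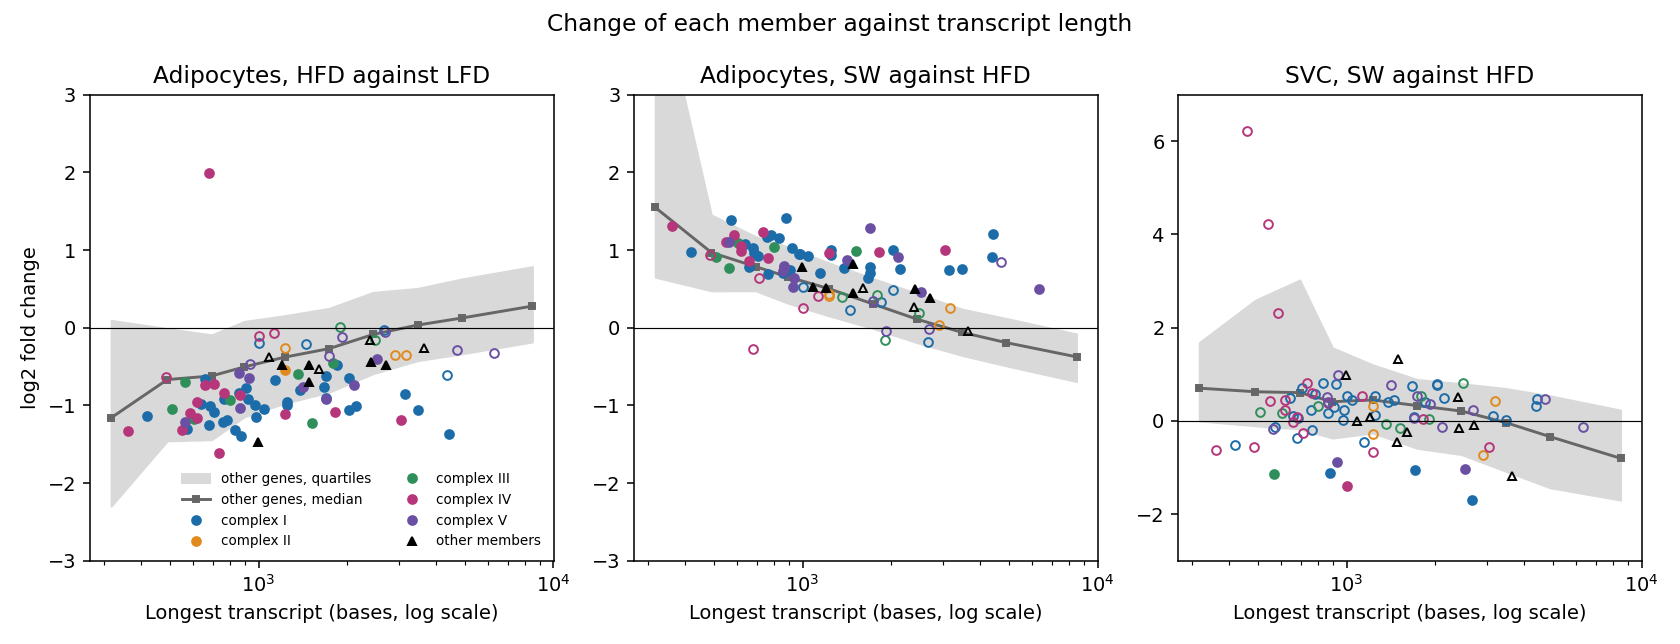
log2 fold change of each member against the length of its longest transcript in bases (log scale), coloured by complex, with filled symbols for adjusted p under 0.05 and open symbols for the rest; the line and band give the median and quartiles of other genes of each length class, and the band of the shortest class runs past the axis in the middle panel. In adipocytes the line rises with length on HFD against LFD and falls with length on SW against HFD.

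In SVC few subunits passed the test between SW and HFD. Of 92 members 0 rose and 7 fell by edgeR's quasi-likelihood test, against 5.71% higher and 11.7% lower among the 16319 genes tested. At an unadjusted p under 0.05 the counts were 9 and 10, where 6949 genes passed in either direction. DESeq2 called 9 and 7 members (2473 and 2749 of all genes) and limma-voom 0 and 5 (531 and 1026). The median over the members was 0.21. The 7 lower on SW were the complex I subunits Ndufs1, Ndufa5 and Ndufs4, Uqcrb of complex III, Cox7b of complex IV and Atp5f1 and Atp5j of the stalk of complex V. Ndufs1 measured 49.9 and 30.1 CPM on HFD and 11.1, 16.1 and 9.63 on SW (log2 fold change -1.69, SE 0.34, adjusted p 0.038), and Ndufa5 measured 23.5 and 17.6 and 9.79, 10.2 and 8.54 (log2 fold change -1.11, SE 0.27, adjusted p 0.043). The others changed by -1.41 (Cox7b), -1.15 (Uqcrb), -1.05 (Ndufs4), -1.03 (Atp5f1) and -0.87 (Atp5j). Summed levels were 1579 and 2521 CPM on HFD and 2727, 2013 and 2965 on SW for complex I, 596 and 1076 on HFD and 1129, 889.5 and 1139.7 on SW for complex III, 1243 and 2020.2 on HFD and 2119, 1576 and 2269.8 on SW for complex IV, 2014 and 3052 on HFD and 3149, 2463 and 3637 on SW for complex V, and 389.6 and 576 on HFD and 522, 423 and 560.2 on SW for complex II. With an offset for GC content 0 of the 16319 genes passed in either direction, members included. At an unadjusted p under 0.05 it gave 13 members higher and 6 lower, where 4593 genes passed in either direction. Of the 7 named above, 3 lay on the other side of 0 with it (Atp5f1 at 0.66, Uqcrb at 0.30 and Ndufs4 at 0.085). With an offset for length 0 members rose and 11 fell (1279 and 1779 of all genes).

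The 2 HFD libraries of SVC differed from each other. Transcripts of mitochondrial DNA took 6.34% of the counts in library 212 and 33.5% in library 411, and erythroid markers summed to 1508 and 28002 CPM. Without library 411 the counts of members were 22 higher and 7 lower with a median of 0.62, and those of all genes 2772 and 3441 of 15888. Without library 212 they were 1 and 0 with a median of 0.03, and 275 and 228 of 15666. Without SW library 412 or 413 no gene passed at all, and without 414 the members gave 1 higher and 0 lower and all genes 495 and 98 of 16532. The number of members higher was 2 without LFD library 236. Macrophage markers summed to 4764 CPM on LFD, 11272 and 16586 on HFD and 16249, 13215 and 17573 on SW, and 1 of 11 passed the test, lower on SW. Of the 36 listed assembly factors 3 fell, of the 21 regulators 4 and of the 18 mass genes 2, where 11.7% of all genes tested fell. In these lists 0 rose, where 5.71% of all genes tested rose. All 13 transcripts of mitochondrial DNA lay below 0 with a median of -1.71, and none passed. No test was made against the single LFD library. Against it the median log2 ratio of the members was 0.24 and 0.67 in the HFD libraries and 0.71, 0.38 and 0.75 in the SW libraries. Over all genes the medians were 0.16, 0.17, 0.02, 0.07 and 0 in the same order. Other genes of 1000 bases or fewer had -0.09, 0.19, 0.48, 0.26 and 0.25. The sums of the LFD library were 1647 CPM for complex I, 315 for complex II, 767 for complex III, 1303 for complex IV and 2052 for complex V.

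A test of the difference between the fractions, the SW against HFD change in adipocytes minus that in SVC, found 15 of 92 members past the threshold with a difference above 0 and 0 with one below 0, against 15.7% and 11.4% of the 17441 genes tested, so that such members were about as frequent as such genes overall. A difference above 0 can come from a rise in adipocytes, a fall in SVC or both. In the separate fits of each fraction Ndufs1 measured -0.18 in adipocytes and -1.69 in SVC, and Uqcrb 0.77 and -1.15. These values need not subtract to the differences of the joint fit, 1.37 for Ndufs1 and 1.80 for Uqcrb. At an unadjusted p under 0.05 the counts by edgeR's quasi-likelihood test were 20 and 0, where 6798 genes passed in either direction. DESeq2 called 16 and 0 (2900 and 2586 of all genes), and limma-voom 14 and 0 (2562 and 2099). The median difference was 0.54. Complex I gave 7 of them, complex IV 3, complex V and the Ndufaf factors 2 each, and complex III 1. Ndufa5 differed most (log2 fold change 2.40, SE 0.37, adjusted p 0.0015), followed by Uqcrb at 1.80 (SE 0.31) and Ndufs4, a subunit lost in some human complex I deficiencies, at 1.74 (SE 0.31). With the offset for GC content 10 of the 15 did not pass, and 12 members passed in all, while the genes past the threshold above 0 numbered 1229 in place of 2742. The difference of Ndufaf4 turned from 1.03 to -0.14 with it. Without SVC HFD library 411 the counts were 14 and 4 (3777 and 2845 over all genes), and without library 212 they were 18 and 0 (1657 and 1274). Subunits such as Atp5b and Uqcrc2 showed no difference past the test (-0.51 and -0.29).

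Set against SVC within SW, 47 of 92 members tested measured higher in the adipocyte fraction and 6 lower (quasi-likelihood test of edgeR). Among all genes tested the shares were 32.8% and 35.6%, and the median over the members was 0.58. The subunits higher in adipocytes numbered 17 of complex I (median 0.47), 2 of complex II (0.38), 7 of complex III (0.97), 12 of complex IV (0.90), 4 of complex V (0.38) and 4 Ndufaf factors (0.66). On a scale common to both fractions, Cox8b measured 47.0, 32.0 and 19.6 CPM in adipocytes and 1.57, 2.38 and 3.13 in SVC (log2 fold change 3.79, SE 0.52, adjusted p 2.7e-05). Cox7a1, also a muscle form, measured 14.1, 7.62 and 8.22 in adipocytes and 1.09, 1.47 and 3.66 in SVC (log2 fold change 2.30, SE 0.50, adjusted p 0.0012). The muscle form Cox6a2 differed from these: on the scale of each fraction, its CPM in the SW libraries overlapped between adipocytes and SVC. Ndufa5 stood 3.02 log2 units higher in adipocytes, Uqcrb 2.46, Ndufs1 2.41, Ndufb3 2.30, Ndufa4 2.14, Atp5f1 2.04 and the flavoprotein Sdha 1.74. The 6 lower in adipocytes were Cox8c, Cox7b2 and Cox6b2 (-4.21, -4.08 and -2.73), Uqcrc1 (-1.19), Atp5sl (-1.24) and Ndufaf3 (-0.65). Cox8c and Cox7b2 had too few counts for a test in adipocytes alone, and their values rest on SVC libraries 412 and 413, where sperm transcripts were also high. They entered the joint test largely through these libraries, so that their selection itself favoured a lower value in adipocytes. All 10 adipocyte markers were higher in adipocytes and 9 of 11 macrophage markers lower. RLE scaling moved the median of all genes to -0.15 here, with 42 members higher and 8 lower (5543 and 6420 of all genes). With the offset for GC content Ndufaf3 turned to 0.38, and of the members higher Uqcrc2 turned to -0.59 (past the test), Ndufv2 to -0.73, Ndufaf7 to -0.41 and Atp5s to -0.33.

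Within HFD 13 of 92 members were higher in adipocytes and 1 lower, against 12.9% and 16.2% of all genes tested, with a median of 0.18. Members higher were thus about as frequent as such genes among all tested. The 13 were Ndufb3, Ndufs1 and Ndufa9 of complex I (1.51, 1.04 and 0.75), Sdha (1.10), Uqcrfs1 and Uqcrc2 of complex III (0.89 and 0.81), Cox8b and Cox4i2 of complex IV (1.95 and 1.16), Atp5b, Atp5j and Atp5f1 of complex V (0.74, 0.68 and 0.66), and Ndufaf1 and Ndufaf4 (1.17 and 0.95). The member lower was Atp5sl, an assembly factor of complex I despite its name (log2 fold change -0.90, SE 0.21, adjusted p 0.008 by edgeR). All 10 adipocyte markers were higher in adipocytes and 3 of 11 macrophage markers lower. Without SVC library 212 the counts were 9 higher and 15 lower (median -0.14; 3259 and 3786 of all genes), and without library 411 they were 11 and 0 (median 0.66; 1334 and 1194). Without SVC library 413 or 414 the count lower was 2. An offset for length raised the count higher to 34, with 2502 genes higher in all in place of 2244, and upper-quartile scaling moved the median of all genes to -0.18.

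The testis forms of complex IV were highest in SVC libraries 412 and 413 on SW. Cox6b2 had counts in every library of both fractions. In adipocytes on SW, Cox8c had 2, 5 and 16 counts and Cox7b2 1, 1 and 6. The CPM below are those of SVC. Cox8c measured 0.175 CPM on LFD, 0 and 0.207 on HFD and 9.99, 13.0 and 0.547 on SW, Cox7b2 0 on LFD, 0 and 0.276 on HFD and 3.30, 4.13 and 0.328 on SW, and Cox6b2 7.15 on LFD, 1.33 and 2.96 on HFD and 11.9, 15.5 and 4.27 on SW. The testis form of cytochrome c, Cyct, measured 2.16, 2.52 and 0.109 CPM in the SW libraries, and the sperm protamine Prm2 9.77 on LFD, 1.97 and 9.31 on HFD and 302, 237 and 15.8 on SW. SW libraries 412 and 413 were high and library 414 low in each of these 5 genes. The 5 testis and epididymis markers summed to 21.1 CPM on LFD, 10.3 and 174 on HFD and 513, 528 and 28.5 on SW, with Tnp1 at 0 on LFD, and their part in the values of the testis forms was not tested.

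Several members have near-identical pseudogene copies elsewhere in the genome, some of which received counts of their own. Only annotated pseudogenes among the genes counted were searched, so copies of other kinds were not looked for. At 90% identity or more over at least 50% of the copy, 63 copies of 33 members were found, of which 39 had a count and 5 had 1000 or more. For 5 members the copies held over 10% of the joint counts. Atp5g2, a version of the c subunit of ATP synthase, had all of its 46207 counts on copies, with 0 on the gene itself, so the pair measured 176, 245 and 265 CPM on LFD, 134, 154 and 156 on HFD and 347, 207 and 204 on SW in adipocytes. Its main copy Gm10231 (chr17:5816200-5816640, minus strand) carries the coding sequence of 441 bases with 0 mismatches. For Ndufb4 the copies held 62.2% of the counts, for Cox7c 61.6%, for Atp5l 29.5% and for Atp5g1 20.7%. The share on copies of Atp5l differed between adipocyte libraries, at 32.8, 55.1 and 41.5% on LFD, 11.4, 16.5 and 21.3% on HFD and 49.2, 32.7 and 26.3% on SW, and its copy Gm10221 fell by 2.34 log2 units on HFD and rose by 2.15 on SW against HFD. With copies added, Atp5l changed by -0.91 on HFD against LFD and passed the test, against -0.33 without them, and Cox7c by -0.98 against -0.73. Ndufb4 changed by -0.79 against -0.996, and Atp5g1 by -0.15 against -0.29. Genes named here were chosen after their values were seen.

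**Figure D3:**
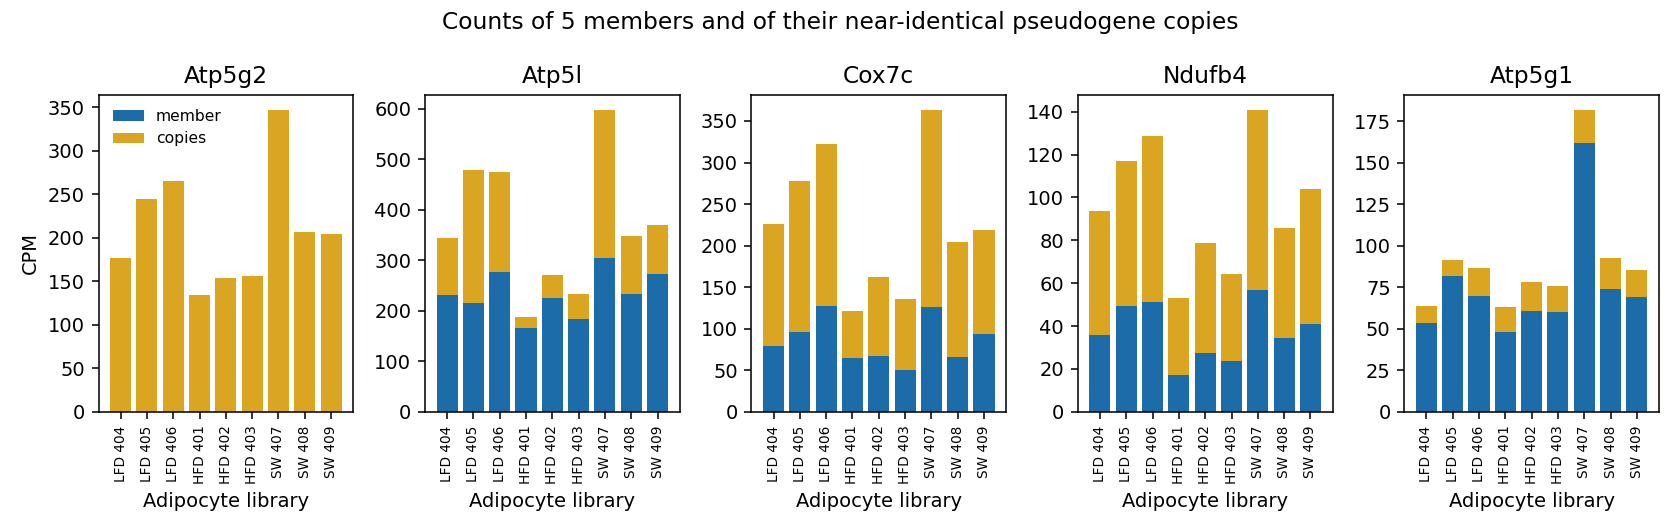
CPM of 5 members (blue) and of their copies (gold) in each adipocyte library, stacked from 0. Atp5g2 shows no blue, and the gold part of Atp5l is smallest in the 3 HFD libraries.

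Atp5g1 and its copy Gm10039 (chr11:100361716-100362126, minus strand, GRCm38) differ by G385A over the 411 bases of the coding sequence, counted from 1 at the A of the start codon with the base of Atp5g1 first. The stretches of positions 355 to 411 are given 5′ to 3′, with the differing base in capitals.
Atp5g1: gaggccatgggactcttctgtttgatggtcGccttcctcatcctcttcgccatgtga
Gm10039: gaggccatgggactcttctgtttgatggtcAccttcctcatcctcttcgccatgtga

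Promoters of the members carry motifs of known regulators of respiratory genes more often than promoters in general. In the 300 bases from 250 before to 50 after the transcription start, on both strands and with overlapping matches counted, the NRF1 motif GCATGCGC was found in 12 of 73 members with a promoter (16.4%), against 3.05% of 26994 genes. CCGGAAG, read by ETS factors such as GABPA, was found in 17 (23.3%, against 9.92%), the YY1 motif AAGATGGC in 9 (12.3%, against 3.18%), TCAAGGTCA of the estrogen-related receptors in 2 (2.74%, against 0.467%), and the TATA box TATAAA in 7 (9.59%, against 15.7%). A match describes the sequence, and binding was not analysed here. The 250 bases before the start are given for 4 genes, chosen after their values were seen, 5′ to 3′ on the strand of the gene (GRCm38.p6), with motif matches in capitals. Cox6a1 (chr5:115348959-115349208, minus strand; HFD against LFD -1.16) holds GCGCATGCGC, in which 2 NRF1 matches overlap, and CTTCCGG, the ETS motif on the other strand. Atp5k (chr5:108434400-108434649, minus strand; -1.22) holds the same pair of overlapping NRF1 matches. Uqcr11 (chr10:80406822-80407071, minus strand; -1.18) holds CCGGAAG, and Cox8b (chr7:140900447-140900696, minus strand; -1.33) holds none of the motifs in these bases.
Cox6a1: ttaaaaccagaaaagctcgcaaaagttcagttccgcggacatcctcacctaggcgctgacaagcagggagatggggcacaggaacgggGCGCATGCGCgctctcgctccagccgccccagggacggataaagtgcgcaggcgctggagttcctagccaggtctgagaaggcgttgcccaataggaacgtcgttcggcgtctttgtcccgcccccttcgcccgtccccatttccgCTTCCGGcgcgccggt
Atp5k: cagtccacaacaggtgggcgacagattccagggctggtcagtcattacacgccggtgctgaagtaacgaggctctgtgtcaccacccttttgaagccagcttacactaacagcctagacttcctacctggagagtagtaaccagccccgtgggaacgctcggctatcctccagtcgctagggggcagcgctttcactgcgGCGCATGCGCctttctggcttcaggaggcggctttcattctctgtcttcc
Uqcr11: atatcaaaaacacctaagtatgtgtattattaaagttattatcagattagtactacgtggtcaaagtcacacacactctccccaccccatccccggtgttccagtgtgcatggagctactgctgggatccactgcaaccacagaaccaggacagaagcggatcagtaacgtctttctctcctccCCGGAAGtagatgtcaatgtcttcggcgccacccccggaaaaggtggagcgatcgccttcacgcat
Cox8b: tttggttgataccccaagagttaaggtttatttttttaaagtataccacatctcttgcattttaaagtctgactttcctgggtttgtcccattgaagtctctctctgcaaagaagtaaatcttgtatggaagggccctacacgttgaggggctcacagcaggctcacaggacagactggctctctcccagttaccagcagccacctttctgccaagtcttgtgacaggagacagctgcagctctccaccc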

How the data were processed

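Values were the estimated counts deposited by the authors, who aligned reads to mm9 with Bowtie2 and estimated counts with RSEM. They were whole numbers as deposited. The labels list 26 samples of 18 libraries, some sequenced single-end and some paired-end. In adipocytes the SW libraries are paired-end only, while some LFD and HFD libraries also have single-end runs. In SVC some HFD and LFD libraries are single-end only, and every SW library has both. Run layout thus differed in part with diet and fraction, and its part in the results was not tested. Of the value columns 15 were used, and 3 whose names give no group were not used. Libraries are named by the numbers in the columns. Adipocyte, SVC and joint comparisons were each fitted with edgeR 4.0.16 (TMM factors, filterByExpr at its default of 10 counts, robust glmQLFit, glmQLFTest) in R 4.3.3, with Benjamini-Hochberg adjustment over all genes tested and a threshold of 0.05. A group left with 1 library is assumed to vary like the others. Alternatives were DESeq2 1.42.0, limma-voom from limma 3.58.1, RLE and upper-quartile factors, other filters, counts without transcripts of mitochondrial DNA and hemoglobin, thinned counts, only the groups compared, offsets for transcript length and GC content, copies added to their members, and each library left out. Lengths, coordinates and GC content came from GENCODE M21 (GRCm38) and promoters from RefSeq (GRCm38.p6). Copies were found with blastn 2.17.0 among the annotated pseudogenes that had a row in the counts. Python 3.11.15, pandas 2.3.3, numpy 2.4.6, scipy 1.17.1 and matplotlib 3.10.9 were also used. Named genes are taken from the 3 highest and 3 lowest log2 fold changes among members past the threshold in each complex and comparison, the Sdh genes, Cyc1, paralogs, members without enough counts and the highest per length. Other genes belong to lists of assembly factors, regulators, cytochrome c, subunits of mitochondrial DNA, mitochondrial mass and cell type markers, and Ndufs1, Uqcrc1, Uqcrc2, Atp5b, Cox6a1, Cox7a2l and Cox7b were also given, in comparisons where the rule did not take them, after their values were seen. The members and lists were chosen with earlier results of these data known. CPM use TMM factors of the fraction, or of both fractions where they are compared, except where the scale of each fraction is stated. Each SD is between the libraries of a group, and each SE was derived from the log2 fold change and the statistic of the quasi-likelihood test.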

Additional observations from a re-analysis of the deposited data

Results flagged for a closer look

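For 15 of 92 members tested the change of SW against HFD differed between the fractions, by the interaction term of the joint edgeR comparison, about the share among all genes, of which 15.7% passed with a difference above 0. In each the log2 fold change in adipocytes was above that in SVC, and the values are the log2 fold change in adipocytes minus that in SVC within the joint fit. In complex I they were Ndufa5 2.40, Ndufs4 1.74, Ndufa2 1.40, Ndufa1 1.38, Ndufs1 1.37, Ndufs5 1.30 and Ndufa6 1.08. In complex III the value was Uqcrb 1.80, in complex IV the values were Cox7b 1.58, Ndufa4 1.55 and Cox6c 1.47, and in complex V Atp5f1 1.38 and Atp5j 1.28. The assembly factors were Ndufaf4 1.03 and Ndufaf1 0.79. With an offset for GC content 10 of the 15 did not pass, and Ndufaf4 turned to -0.14, or -0.11 with length and GC together. A difference above 0 can come from a rise in adipocytes, a fall in SVC or both. The HFD side of SVC rests on 2 libraries that differ from each other, and the cause of the difference between the fractions was not tested.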

How the results depend on the processing

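Of 463 alternative values of the counts and medians, 395 stayed close to the value given above, which for a count means within 1.5-fold and for a median within the SD between replicates of the median log2 CPM of the members (0.27 in adipocytes, 0.33 in SVC and 0.32 in the joint comparisons). Offsets for length and GC together and for the length of the principal transcript were chosen after seeing the data, as were stricter filtering, copies added and thinning for the joint comparisons. HFD against LFD in adipocytes: the count higher was 0 with at least 10 counts in every library and with thinned counts, 4 with the length offset, 3 with length and GC and 4 with principal length, the count lower was 48, 48 and 46 with these offsets, and the median was -0.37, -0.38 and -0.37 with them. SW against HFD in adipocytes: the count higher was 23, 25 and 16 and the median 0.22, 0.18 and 0.19 with the same offsets. SW against LFD: the count higher was 1 without a filter, and the count lower was 4, 3 and 8 with the same offsets and 0 with thinned counts and with only the groups compared. SVC SW against HFD: the count higher was 9 by DESeq2, 2 without a filter, 1 with at least 10 counts in every library, 1 with thinned counts and 2 with only the groups compared, the count lower 11 with length, 0 with GC, 0 with length and GC and 12 with principal length, and the median -0.15 with length and -0.28 with length and GC. Adipocytes against SVC in HFD: the count lower was 2 by DESeq2 and with upper-quartile factors, the count higher 34, 31 and 38 with length, length and GC and principal length, and the median 0.51 with principal length. In SW the count lower was 3 with at least 10 counts in every library, and the median 0.96 with length and GC. Leaving out 1 library gave, for HFD against LFD, 0 to 1 higher, 47 to 70 lower and medians of -0.92 to -0.63. For SW against HFD the ranges were 9 to 67 higher, 0 to 0 lower and 0.55 to 0.89, and for SW against LFD 0 to 1 higher, 0 to 1 lower and -0.25 to 0.08. In SVC they were 0 to 22 higher, 0 to 7 lower and 0.026 to 0.62, and 11 to 18 members differed between the fractions. Adipocytes against SVC in SW gave 40 to 54 higher, 5 to 9 lower and 0.52 to 0.92, and in HFD 9 to 18, 0 to 15 and -0.14 to 0.66. Single genes changed sign in these cases. HFD against LFD: Cox7a2l 0.40 and Cox7b 0.39 with length, Cyc1 0.059 and Cox7a2l 0.36 with length and GC, and Cox7a2l 0.36, Cox7b 0.33 and Ndufaf2 0.13 with principal length. SW against HFD: Uqcrb -0.091, Atp5j -0.096 and Ndufb3 -0.012 with length, Uqcrb -0.062, Atp5j -0.064, Ndufa4l2 -0.0047 and Cox6a1 -0.0096 with length and GC, and Uqcrb -0.072, Atp5j -0.105, Atp5l -0.28 and Ndufaf2 -0.20 with principal length. SVC SW against HFD: Atp5f1 0.66, Uqcrb 0.30 and Ndufs4 0.085 with GC, and Atp5f1 0.31 with length and GC. Difference between the fractions: Ndufaf4 -0.14 with GC and -0.11 with length and GC. Adipocytes against SVC in SW: Cyc1 0.92, Ndufaf7 -0.41, Ndufv2 -0.73, Uqcrc2 -0.59, Cox4i1 0.98, Atp5s -0.33 and Ndufaf3 0.38 with GC, and Cyc1 1.07, Ndufaf7 -0.18, Ndufv2 -0.38, Uqcrc2 -0.26, Cox4i1 1.23 and Ndufaf3 0.55 with length and GC. Adipocytes against SVC in HFD: Cox6a1 0.71 with length and GC. The cause was not tested. No paired analysis was possible because the columns carry none of the replicate numbers of the labels. Depth limits members with few counts, such as Cox6a2, whose call was lost with thinned counts.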
